A study of Mus musculus with 18 samples.

Results

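A set of 10 genes of proximal T cell receptor signalling were described here out of the 22180 genes that the arrays could report under a single symbol. They are Zap70, Lat, Lcp2, Txk, Skap1, Prkcq, Themis, Ubash3a, Fyn and Plcg1, and each was read from its single-symbol probe set, the brightest one by the mean over 18 arrays where a gene has several. Each of the 10 has exactly 1 such probe set. RNA of 6 sorted mouse cell populations was measured on Affymetrix arrays, with 3 arrays in each group. LSK cells, a gate for SCA1 and KIT among bone marrow cells without lineage markers that holds the blood stem cells, came from healthy wildtype mice aged 18 months. The other 5 groups, CLP, DN1, DN2, DN3 and DN4, are fractions sorted from lymphomas that grew in the thymus of Lck-Cre mice. These mice had been sublethally irradiated and had received bone marrow infected with a retrovirus for NPM-ALK, a fusion tyrosine kinase of anaplastic large cell lymphoma, and the Lck-Cre transgene limits its expression to early T cells. The fractions carry the names of normal early stages (common lymphoid progenitor and the CD4 and CD8 double-negative thymocyte stages) because the same surface markers defined the gates. The healthy cells therefore differ from the lymphoma fractions in cell type, tissue, the Lck-Cre transgene, irradiation, transplantation and the fusion gene at once. These differences cannot be told apart. An age is stated for the LSK mice only. No healthy DN cells were analysed here. The description fields name another mouse model, for 12 arrays with 4 Gy of irradiation. Those 12 include LSK replicate 3 and leave out the other LSK arrays, CLP replicate 3 and the DN4 arrays. The description fields disagree with titles and genotypes, and the grouping rests on the titles.

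When a T cell receptor binds its ligand, Src family kinases such as LCK and FYN phosphorylate the CD3 chains, ZAP70 docks there and phosphorylates the adaptors LAT and SLP-76 (encoded by Lcp2). On this scaffold TEC family kinases such as TXK act on phospholipase C gamma 1 (Plcg1), whose products release calcium and activate PKC theta (Prkcq) and the RAS pathway. In the thymus the same machinery first serves the pre-TCR and later the selection of thymocytes. Lck and the zeta chain gene Cd247 were not analysed here.

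The values are log2 RMA signals, so a difference of 1 is a doubling of signal. Signals of different probe sets are not on 1 scale and are not compared between genes. Background was gauged from 1108 probe sets for olfactory receptors, which blood cells hardly express, and their 95th percentile lay at 5.36 to 5.71 over the arrays. Arrays of the same group correlated with r of 0.968 to 0.993, and the CLP arrays were the least alike. The mean over 5 T cell markers was 5.2 to 5.32 on the LSK arrays and 10.73 to 11.45 on the lymphoma arrays, so T cell markers were present in each lymphoma fraction. The mean over 7 stem and progenitor markers was 9.04 to 9.14 in LSK and 5.22 to 5.81 in the lymphoma. The LSK arrays are not uniform in sex-linked RNA. Xist read 3.55, 10.74 and 10.00 on LSK arrays 1 to 3, and 3.81 to 5.03 in the lymphoma. The Y-linked Eif2s3y read 8.42, 7.43 and 4.69 in LSK and 8.62 to 9.44 in the lymphoma. All 10 genes lie on autosomes, while Btk and Bmx, described below, lie on the X chromosome. The part of sex in the results was not tested.

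RefSeq promoter windows on build GRCm38.p6 were matched for 9 of the 10 genes, and Skap1 had no entry in the table used. The 4 windows whose start is the 5′ end of their gene are shown, as the 250 bases before the start. They belong to a gene below background in LSK (Themis), a kinase that was nearly flat among the lymphoma fractions (Zap70), the gene that did not pass the test (Lcp2) and the effector enzyme (Plcg1). The windows of Lat, Txk, Prkcq, Ubash3a and Fyn use a start other than the 5′ end of the gene. Capitals mark matches, on either strand, to the letters CAGGTG (an E-box), AGGAAG (an ETS core), CTTTGA (TCF/LEF), TGTGGT (RUNX) and TGACGTCA (CRE), which were chosen after the sequences were seen.
Zap70, chr1:36761548-36761797, plus strand: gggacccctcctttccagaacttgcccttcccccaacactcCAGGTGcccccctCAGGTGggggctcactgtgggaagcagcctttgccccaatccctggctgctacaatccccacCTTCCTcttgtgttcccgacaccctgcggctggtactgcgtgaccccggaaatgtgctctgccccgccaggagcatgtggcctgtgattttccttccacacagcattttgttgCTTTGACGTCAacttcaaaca
Lcp2, chr11:34046678-34046927, plus strand: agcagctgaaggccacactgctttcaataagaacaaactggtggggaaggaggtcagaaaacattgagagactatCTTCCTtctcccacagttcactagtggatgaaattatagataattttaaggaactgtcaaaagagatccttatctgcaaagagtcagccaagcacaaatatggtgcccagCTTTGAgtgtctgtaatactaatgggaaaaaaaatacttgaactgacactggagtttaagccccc
Themis, chr10:28668110-28668359, plus strand: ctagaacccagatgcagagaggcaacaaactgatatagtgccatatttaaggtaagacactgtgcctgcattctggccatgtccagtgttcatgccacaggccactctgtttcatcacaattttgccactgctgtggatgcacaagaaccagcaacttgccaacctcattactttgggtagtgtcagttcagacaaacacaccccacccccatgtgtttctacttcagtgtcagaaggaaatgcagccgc
Plcg1, chr2:160731060-160731309, plus strand: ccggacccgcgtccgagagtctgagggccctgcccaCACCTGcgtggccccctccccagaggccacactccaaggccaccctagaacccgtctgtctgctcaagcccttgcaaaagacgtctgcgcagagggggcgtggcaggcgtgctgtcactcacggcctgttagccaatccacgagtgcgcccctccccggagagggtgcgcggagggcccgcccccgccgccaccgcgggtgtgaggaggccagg

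The Zap70 window held 2 E-box matches, 1 ETS match, and a TCF/LEF match that overlaps a CRE match 18 bases before the start. The Themis window held none of the 5 motifs. Over the full 300-base windows (250 bases before and 50 after the start), the CRE was found in 1 of 9 members and in 2.33% of 17491 protein-coding promoters, and the ETS core in 5 of 9 and 34.3%. TCF/LEF letters were found in 4 of 9 members and 14.9% of promoters, the E-box in 2 of 9 and 19.3%, and the RUNX letters in 1 of 9 (Lat) and 15.1%. A match is a run of letters and no evidence of binding. The ratio of observed to expected CpG, which is high in CpG islands, had a median of 0.58 over all promoters and was 0.93 for Prkcq, 0.89 for Fyn and 0.70 for Plcg1. It was 0.34 for Zap70, 0.31 for Lat, 0.30 for Txk, 0.28 for Ubash3a, 0.06 for Themis and 0.00 for Lcp2.

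The first comparison set the lymphoma as a whole against LSK, with the mean of the 5 fractions of each replicate number (3 values) against 3 LSK arrays. Whether a replicate number marks the same lymphoma across fractions is not stated in the labels. Of the 10 genes, 9 were higher in the lymphoma and 0 were lower (limma, Benjamini-Hochberg adjusted p under 0.05 over all genes), against 13.1% of all genes higher and 15.8% lower. The median difference was 2.24, against 0.05 over all genes. With every array value held at or above the background gauge, the median of the 10 was 2.16. The kinase Zap70 had the largest difference among the 7 genes measured above background in LSK, and the kinase Fyn and the adaptor Lcp2 had the smallest. In 8 of the 10 all 15 lymphoma arrays lay above all 3 LSK arrays, a pattern that 6.28% of all genes show, and the other two, Fyn and Lcp2, overlapped. In bulk RNA, fewer cells of a type and less RNA per cell cannot be told apart.

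**Figure D1:**
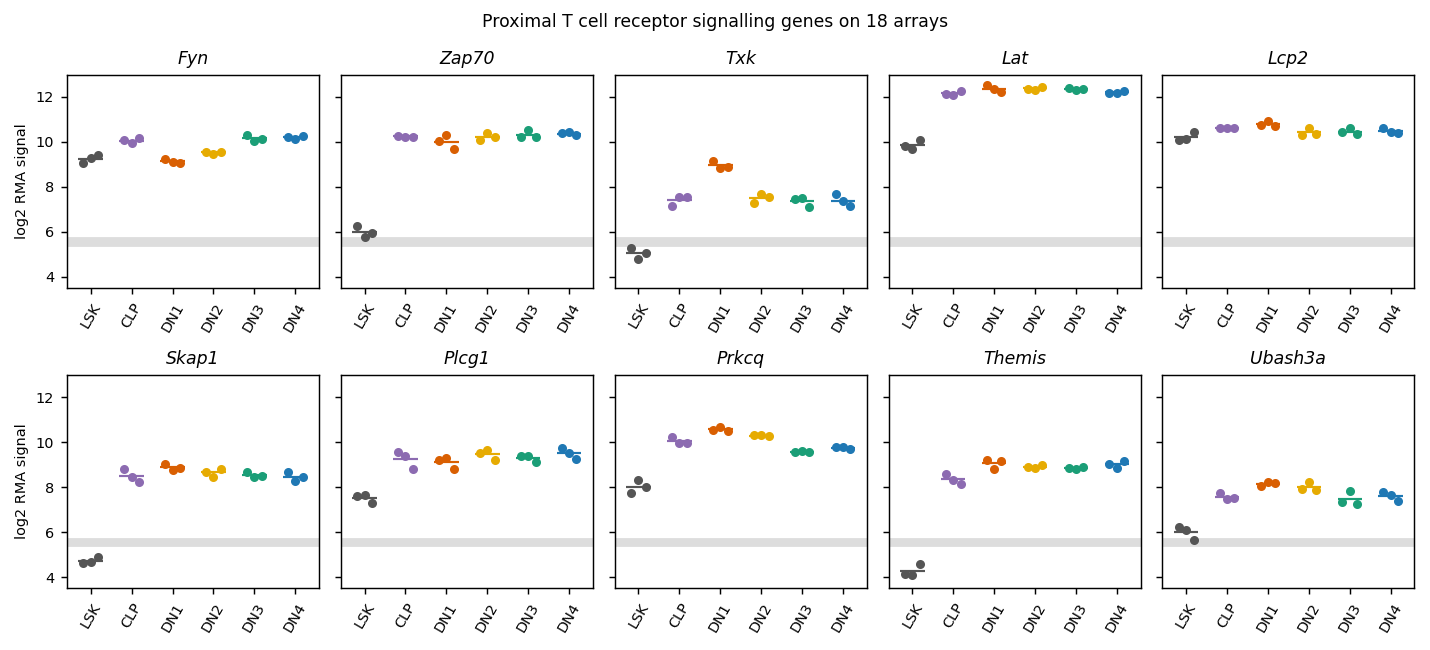
Log2 RMA signal (vertical axis) of each of the 10 genes on every array, by group (LSK, CLP, DN1, DN2, DN3, DN4; 3 arrays each). Points are arrays, bars are group means and the grey band is the background gauge (5.36 to 5.71). All 15 lymphoma arrays lie above the LSK arrays in 8 of the 10 genes, with overlap in Fyn and Lcp2.

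Among the kinases, Zap70 (probe set 17211867, chromosome 1), which binds the phosphorylated CD3 chains, read 6.26, 5.77 and 5.96 on the LSK arrays. Its 15 lymphoma arrays ran from 9.70 to 10.51 with a median of 10.24, so the groups did not approach each other. It was 18.8-fold higher (log2 difference 4.24, SE 0.137, limma adjusted p = 2.94e-08). Txk (probe set 17448693, chromosome 5), a TEC family kinase of T cells, read 5.28, 4.80 and 5.07 in LSK, below the background gauge on each array, and 7.12 to 9.16 with a median of 7.53 in the lymphoma. Since its LSK level is only a bound, it was at least 4.85-fold higher (adjusted p = 3.23e-07 by limma). Such a bound sets the lymphoma mean against the gauge on the LSK arrays.

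Fyn (probe set 17232649, chromosome 10), a Src family kinase, was already well above background in LSK, at 9.05, 9.29 and 9.41. Its lymphoma arrays ran from 9.06 to 10.29 with a median of 10.04, and the lower ones lay within the LSK range. The mean was 1.48-fold higher (log2 0.57, SE 0.114, limma adjusted p = 0.00446). That value averages fractions that moved apart, as described for the single fractions.

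Of the adaptors, Lat (probe set 17496150, chromosome 7), the membrane scaffold of the pathway, read 9.81, 9.69 and 10.08 in LSK and 12.08 to 12.53 in the lymphoma. The lymphoma arrays lay close together and far above LSK, and the difference was 2.43 (SE 0.117, 5.4-fold, limma adjusted p = 3.18e-07). Skap1 (probe set 17255626, chromosome 11), which links the receptor to integrin adhesion, read 4.61, 4.65 and 4.89 in LSK, all below the gauge, and 8.25 to 9.03 in the lymphoma. It was at least 8.96-fold higher (limma adjusted p = 2.19e-08). Lcp2 (probe set 17248380, chromosome 11), whose product SLP-76 also serves platelets and myeloid cells, read 10.10, 10.15 and 10.42 in LSK and 10.33 to 10.93 in the lymphoma. Lymphoma arrays overlapped the highest LSK array, and the difference of 0.34 (95% interval 0.08 to 0.59) did not pass the test (limma adjusted p = 0.0525). Without LSK replicate 3 it was 0.44 and passed (adjusted p = 0.00996).

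Of the effector enzymes, Plcg1 (probe set 17379037, chromosome 2) read 7.60, 7.63 and 7.31 in LSK and 8.80 to 9.73 in the lymphoma. It was 3.52-fold higher (log2 1.82, SE 0.144, limma adjusted p = 9.9e-06). Its replicate 3 was the lowest array in each of the 6 groups, LSK included. Prkcq (probe set 17366953, chromosome 2), which encodes PKC theta, the T cell form of protein kinase C at the synapse, read 7.72, 8.33 and 8.0 in LSK and 9.56 to 10.67 in the lymphoma. The 4.11-fold difference (log2 2.04, SE 0.146) had a limma adjusted p of 5.12e-06.

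Of the regulators, Themis (probe set 17232394, chromosome 10), needed in thymocyte selection, read 4.14, 4.11 and 4.57 in LSK, below the gauge on each array. The lymphoma arrays ran from 8.15 to 9.21 with a median of 8.86, at least 10.5-fold higher (limma adjusted p = 1.83e-08). Ubash3a (probe set 17335798, chromosome 17), a member of a protein family that dampens receptor signalling, read 6.22, 6.09 and 5.66 in LSK and 7.27 to 8.23 in the lymphoma. It was 3.41-fold higher (log2 1.77, SE 0.147, limma adjusted p = 1.38e-05).

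The fractions were then compared with LSK one by one. These 5 comparisons share the same 3 LSK arrays, so they are set side by side and not counted as independent. The CLP fraction had 9 of the 10 genes higher (6.54% of all genes) and DN1 also 9 (7.45%). DN2 had 8 (11.4%), DN3 had 9 (11.4%) and DN4 had 9 (11.8%). Lower were 0 of the 10 in each fraction, against 11.2% of all genes for CLP, 12.3% for DN1, 14% for DN2, 13.1% for DN3 and 14.9% for DN4. Since every gene but Fyn in DN1 had a positive difference, limma at an unadjusted p under 0.05 called 0 lower as well. The count was 8 for genes called higher in each of the 5 fractions, against 3.45% of all genes, and those were Zap70, Lat, Txk, Skap1, Prkcq, Themis, Ubash3a and Plcg1. The median difference of the 10 genes ranged from 2.05 (DN3) to 2.53 (DN1).

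**Figure D2:**
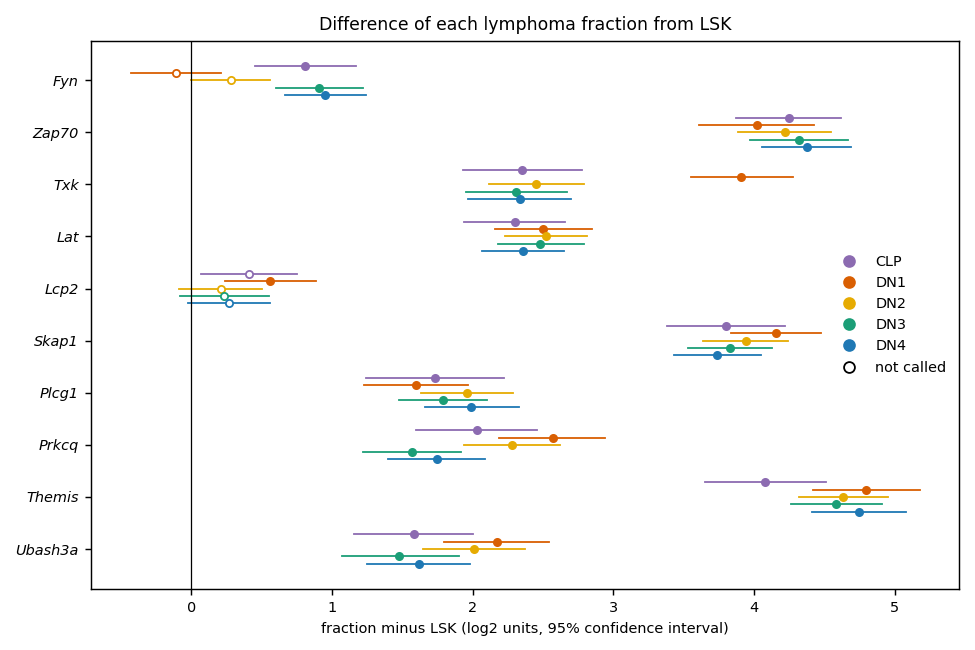
Log2 difference from LSK (horizontal axis) of the 10 genes in each lymphoma fraction, with 95% intervals from limma (3 arrays against 3). Open circles did not pass the test, the LSK arrays of Txk, Skap1 and Themis lay below background so that their values are not exact folds, and for Fyn the DN1 value of -0.11 lies beside 0.95 in DN4.

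Fyn and Lcp2 were the genes whose call changed with the fraction. Fyn was higher than LSK by 0.81 in CLP (limma adjusted p = 0.00715), 0.91 in DN3 (0.000586) and 0.95 in DN4 (0.00019). Its difference was -0.11 in DN1 (95% interval -0.43 to 0.21, adjusted p = 0.681) and 0.28 in DN2 (0.00 to 0.56, adjusted p = 0.147), neither of which passed. Lcp2 was higher by 0.56 in DN1 (adjusted p = 0.0189), a call that was lost without LSK replicate 1 (adjusted p = 0.0853), LSK replicate 2 (0.0757) or DN1 replicate 2 (0.0740). In the other fractions its difference was 0.21 to 0.41 and did not pass. For Txk the bound against LSK was at least 11.4-fold in DN1 and 3.76-fold to 4.16-fold in the other fractions.

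Each of the 10 genes has relatives in other blood lineages that do similar work, and these were read beside them. Of 19 measured paralogues, 13 were lower in the lymphoma than in LSK (15.8% of all genes), 2 were higher and 4 did not pass the test, with a median difference of -1.56 (-1.33 with array values held at or above the gauge). At least 1 paralogue was lower in each of the 10 families. In the ZAP70 family Syk, the kinase of B and myeloid cells, was lower by 1.24 on the log2 scale (limma adjusted p = 0.000128), with LSK arrays at 8.57, 8.34 and 8.05 and fraction means of 6.67 to 7.47. In the TEC family Btk, the B cell kinase, averaged 9.31 in LSK and lay below background on all 15 lymphoma arrays, at least 13.4-fold lower (limma adjusted p = 2.79e-09). Tec was lower by 2.23, and Bmx was below background on all 18 arrays.

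The other families also held lower paralogues, but not every paralogue in them was called lower. Plcg2, the phospholipase of B cells, averaged 9.13 in LSK and lay below background on 14 of 15 lymphoma arrays, which with those arrays held at the gauge makes it at least 11.7-fold lower (limma adjusted p = 9.61e-09). Skap2, Ubash3b and Themis2 each lay below background on 9 of 15 lymphoma arrays, and by the same bound they were at least 11.9-fold, 5.17-fold and 2.52-fold lower. Lat2, measured above background on all arrays, differed by -2.46. Of the SLP-76 relatives Clnk was at least 5.28-fold lower, and Blnk, the B cell linker, differed by -0.58 and did not pass (limma adjusted p = 0.257). Among the Src kinases Src differed by -0.81 and Fgr and Blk did not pass, while Yes1 was called lower although it lay below background on all 18 arrays. The protein kinase C genes split: Prkce, below background on 10 of 15 lymphoma arrays, was at least 5.79-fold lower, Prkcd differed by -1.56, and Prkch, which is abundant in T cells, was higher by 0.94 (limma adjusted p = 5.74e-05). Themis3 was called higher (0.37) but was below background on all 18 arrays, so it gives no fold.

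**Figure D3:**
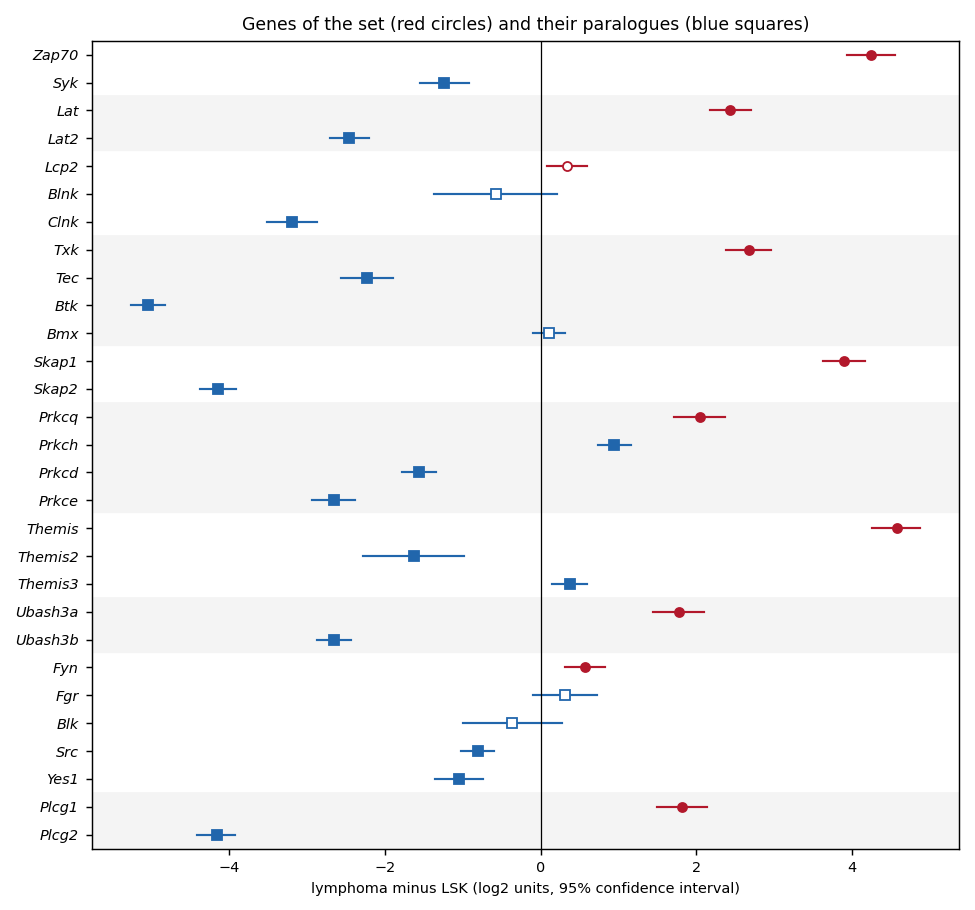
Log2 difference of all lymphoma fractions from LSK (axis in log2 units) for each of the 10 genes and its measured paralogues, grouped by family, with 95% intervals and open symbols for genes that did not pass. The genes of the set lie at 0.34 or above, and 13 of 19 paralogues were called lower. Positions of genes below background in a group (such as Btk in the lymphoma and Themis in LSK) are not exact folds.

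The second question was whether the 10 genes differ among the lymphoma fractions, tested over the 15 lymphoma arrays. The F test called 5 of 10 (7.88% of all genes), namely Txk, Fyn, Prkcq, Themis and Ubash3a. The span from the lowest to the highest fraction mean had a median of 0.55 over the 10 genes and 0.32 over all genes. DN1 had the highest mean of Txk, Prkcq, Themis and Ubash3a and the lowest mean of Fyn. The other 5 genes had spans of 0.22 (Lat) to 0.42 (Skap1) with adjusted p of 0.331 to 0.694 by limma. Between pairs of fractions, 20 of 100 tests (10 genes in 10 pairs) passed, and all 20 fall in the 5 genes that the F test called.

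**Figure D4:**
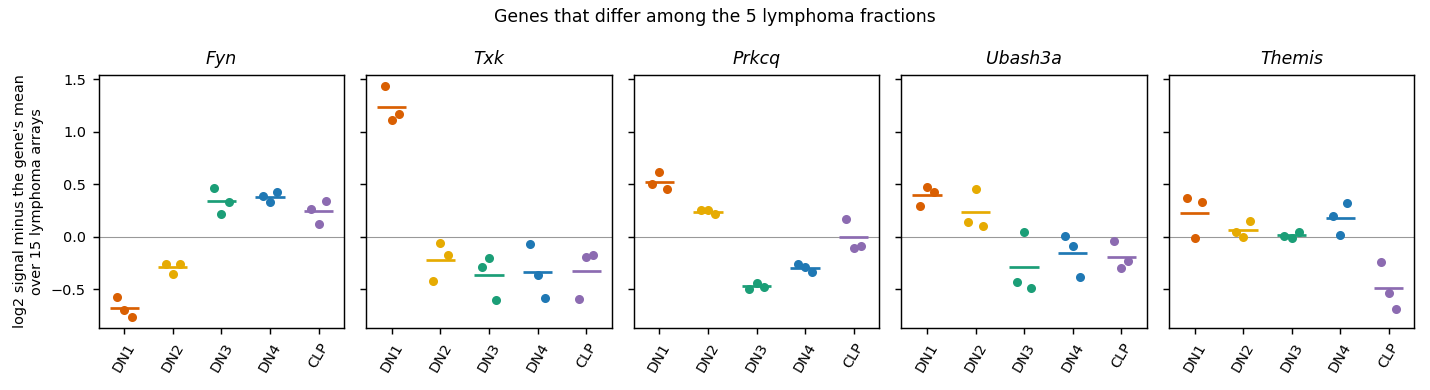
Log2 signal minus the mean of the gene over the 15 lymphoma arrays (vertical axis) for the 5 genes called by the F test, with points for arrays (3 a fraction) and bars for fraction means. DN1 lies lowest for Fyn (mean signal 9.14 before centring) and highest for Txk (8.96) and Prkcq (10.58).

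Txk stood apart in DN1. Its DN1 arrays read 9.16, 8.84 and 8.89, while the 12 arrays of the other fractions ran from 7.12 to 7.67. None of those 12 came near the DN1 arrays, and the span was 1.61 (limma adjusted p = 1.12e-05). DN1 was higher than CLP by 1.56 (SE 0.172, adjusted p = 1.22e-05 by limma), than DN2 by 1.46 (0.000208), than DN3 by 1.61 (6.49e-06) and than DN4 by 1.58 (7.83e-06). It was the only one of the 10 genes called between DN1 and DN2, a step at which 1.35% of all genes were called. CLP, DN2, DN3 and DN4 did not differ beyond their spread, with differences of -0.15 to 0.10, and without DN1 the F test was lost (span 0.15, adjusted p = 0.959).

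Fyn ran the other way. Its arrays read 9.25, 9.12 and 9.06 in DN1, 9.56, 9.47 and 9.56 in DN2, and 10.09, 9.94 and 10.16 in CLP. DN3 read 10.29, 10.04 and 10.15, and DN4 read 10.21, 10.15 and 10.25. DN1 lay below DN2 and DN2 below the other three with no overlap, and the span was 1.06 (limma adjusted p = 1.84e-05). DN1 was lower than CLP by 0.92 (SE 0.12, adjusted p = 7.54e-05 by limma), than DN3 by 1.02 (1.86e-05) and than DN4 by 1.06 (1.19e-05). DN2 was lower than DN3 by 0.63 (0.00525) and than DN4 by 0.67 (0.00268). It was also lower than CLP by 0.53 (0.0209), a call that was lost when any DN2 array was left out (0.0622 to 0.114). The same call was lost without CLP replicate 3 (limma adjusted p = 0.0522). DN1 and DN2, with a difference of 0.39, did not pass (0.180), nor did any pair of CLP, DN3 and DN4.

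Prkcq was highest in DN1 with means in the order DN1, DN2, CLP, DN4, DN3. Its arrays read 10.56, 10.67 and 10.51 in DN1, 10.31, 10.31 and 10.27 in DN2, and 10.23, 9.95 and 9.97 in CLP. DN4 read 9.80, 9.77 and 9.72, and DN3 read 9.56, 9.62 and 9.58. The span of 0.99 had a limma adjusted p of 7.44e-05, and the fractions did not overlap. No neighbours in that order passed the pair test, but DN1 was higher than DN3 by 0.99 (SE 0.117, 1.78e-05), than DN4 by 0.82 (0.00015) and than CLP by 0.53 (0.00801). DN2 was higher than DN3 by 0.71 (0.00132) and than DN4 by 0.53 (0.0144). The DN4 call was lost when any DN2 array was left out (limma adjusted p of 0.0533 to 0.0686). It was also lost without DN4 replicate 2 (0.0584 by limma) or DN4 replicate 3 (0.0697).

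Themis was low in CLP, at 8.60, 8.31 and 8.15, against 8.83 to 9.21 on the 12 arrays of DN1 to DN4. The span of 0.72 passed (limma adjusted p = 0.0172) but not without CLP replicate 2 (0.0683) or CLP replicate 3 (0.0896), and without the CLP arrays it was 0.21 (0.744). DN1 was higher than CLP by 0.72 (SE 0.144, adjusted p = 0.00401 by limma). The calls of DN2 (0.0491) and DN4 (0.0345) against CLP were each lost in several alternatives. Ubash3a was highest in DN1, at 8.05, 8.23 and 8.19, and lowest in DN3, at 7.33, 7.81 and 7.27, and its DN2 array 2, at 8.22, lay within the DN1 range. The F test (limma adjusted p = 0.0305, span 0.68) was lost when any of 7 arrays was left out in turn, with adjusted p of 0.0518 to 0.0952. DN1 was higher than CLP by 0.59 (0.033 by limma) and than DN3 by 0.68 (0.0133), and both calls were lost without DN1 replicate 2 (0.104 and 0.0538). In all, the CLP call was lost when any of 5 arrays was left out in turn, and under quantile normalization (limma adjusted p = 0.0548). The DN3 call was lost when any of 3 arrays was left out, with limma adjusted p up to 0.0801.

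The share of each pair of fractions that passed in all genes gives the background for these counts. Of the 10 genes, 5 were called between CLP and DN1 (7.78% of all genes), 4 between DN1 and DN3 (6.70%), 3 between DN1 and DN4 (5.61%), and 2 each between CLP and DN2 (2.87%), DN2 and DN3 (2.45%) and DN2 and DN4 (2.65%). One was called between CLP and DN4 (1.07%), and 0 between CLP and DN3 (1.10%) and between DN3 and DN4 (0.00451%).

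Some markers of other cell types differed among the fractions, and their part in the results was not tested. The mean over the T cell markers was 10.73 to 10.98 in DN1 and 11.06 to 11.45 in the other fractions. The mean over 8 macrophage and monocyte markers was 5.99 to 6.12 in DN1, 5.90 to 6.11 in DN2 and 5.53 to 5.73 in CLP, DN3 and DN4. Of these 8, 3 were higher and 4 lower than in LSK, and only Mrc1 passed the F test among the fractions (means of 7.87 in DN1 and 7.47 in DN2 against 5.08 to 5.33). Cd68 averaged 8.24 in CLP and 8.75 to 8.86 in DN1 to DN4, against 8.09 in LSK, while the fraction means of Csf1r, Adgre1 and Cd14 were at most 5.62, 4.86 and 4.62.

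The mean over 6 NK cell markers was 4.65 to 4.81 in DN1 and 4.44 to 4.68 in the other fractions, and Klrd1 averaged 4.90 in DN1 against 3.91 to 4.04 (F test, limma adjusted p = 0.00262). Over 6 B cell markers it was 5.05 to 5.29 in DN1 and 4.86 to 5.25 in the others, and Blk averaged 5.55 in DN2 to 6.57 in DN4 (0.00283). Kit, a progenitor marker that was also part of the sort, averaged 10.77 in DN1, 10.68 in DN2, 9.43 in CLP, 8.06 in DN3 and 8.20 in DN4 (9.02e-10). The mast cell marker Cpa3 averaged 10.18 in CLP and 7.21 in DN2 (2.88e-05). The stromal marker Col1a2 averaged 5.93 in DN2 to 7.31 in DN4 (7.86e-06). Each of these genes was the only marker of its list that passed the F test, out of 4 for mast cells and 6 for stroma. No granulocyte, erythroid, megakaryocyte or dendritic cell marker passed it.

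Other genes of the pathway were counted from lists. All 3 measured CD3 chains were higher in the lymphoma than in LSK. Of 12 measured partners of the LAT complex, 6 were higher and 2 lower (13.1% and 15.8% of all genes), with a median of 0.84. Trat1, a transmembrane adaptor of the receptor, was at least 12.8-fold higher (limma adjusted p = 6.61e-09), and Grap2, which joins SLP-76 to LAT, averaged 9.88 against 5.96 (3.92, SE 0.174, adjusted p = 1.92e-07). Sh2d2a, an adaptor that binds LCK, was higher by 3.85 (7.11e-08) and the adaptor Nck2 by 2.59 (2.92e-07). The RAS exchange factor Sos1 differed by -0.55 and the adaptor Sh3bp2 by -0.59, both called lower.

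Of 18 measured inhibitors of proximal signalling, 11 were higher and 2 lower (13.1% and 15.8% of all genes), with a median of 0.49. Cd5, a surface inhibitor of receptor signalling, averaged 8.95 against 6.40 (2.55, SE 0.101, limma adjusted p = 9.54e-08), and its relative Cd6 was higher by 2.10 (1.23e-06). The phosphatase gene Ptpn22 was higher by 3.13 (2.78e-07) and the adaptor Sit1 by 3.85 (9.15e-07), with 2 of its 3 LSK arrays below background. Inpp5d, which encodes the lipid phosphatase SHIP1, was lower by 2.23 (2.8e-06), and Lax1 differed by -0.62.

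Downstream branches were mixed. Of 15 measured genes of the calcium, RAS and PKC branches, 4 were higher and 6 lower (13.1% and 15.8% of all genes), with a median of -0.24. Rasgrp1, a RAS exchange factor activated by diacylglycerol, was at least 5.9-fold higher (limma adjusted p = 5.76e-08), and the calcium channel genes Itpr2 and Itpr3 were higher by 2.90 and 1.39. Ppp3cb, a catalytic subunit of calcineurin, was higher by 0.37, whereas Ppp3ca, the other measured catalytic subunit, averaged 7.03 against 9.17 (-2.14, SE 0.118, adjusted p = 8.29e-07). Also lower were Malt1 (-1.26) and Bcl10 (-0.79), which link PKC theta to NF-kappaB, the calcium channel gene Orai1 (-0.77), and the PI3 kinase subunits Pik3cd (-0.53) and Pik3r1 (-0.49).

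**Figure D5:**
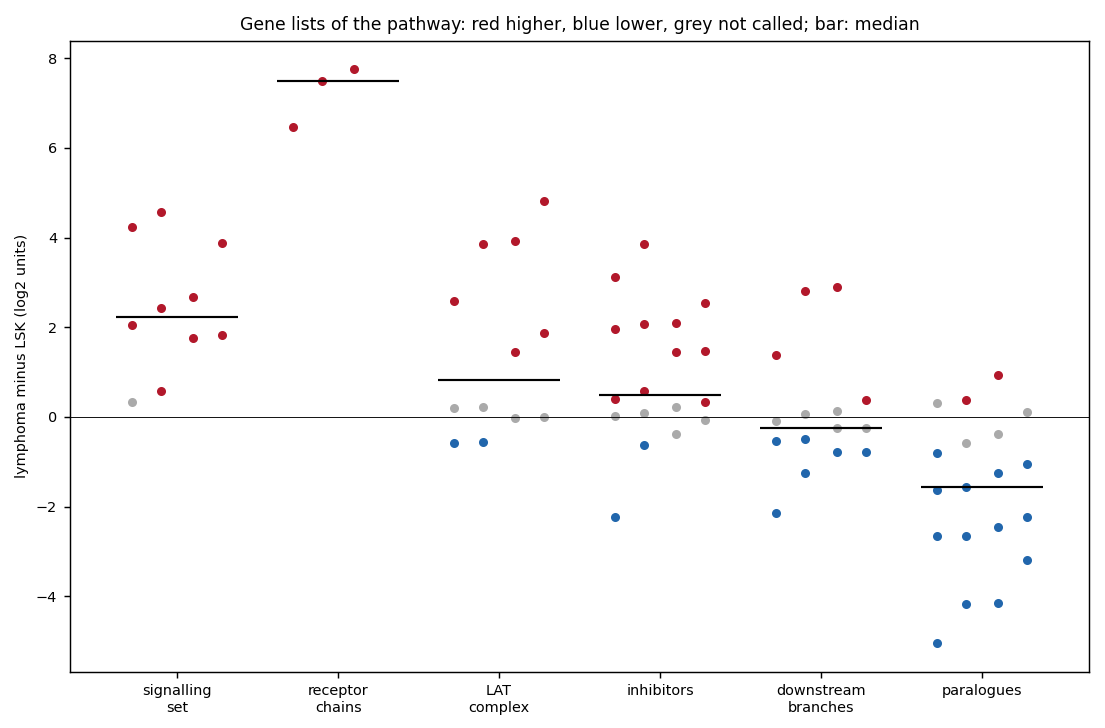
Log2 difference of all lymphoma fractions from LSK for the measured genes of each list (1 point a gene; red higher, blue lower, grey not called), with bars for the list medians. The 10 signalling genes have a median of 2.24, the inhibitors 0.49, the downstream branches -0.24 and the paralogues -1.56.

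Within the lymphoma the F test called 2 of 3 CD3 chains, 3 of 12 LAT partners, 6 of 18 inhibitors, 3 of 15 downstream genes and 6 of 19 paralogues, against 7.88% of all genes. Cd5 was lowest in DN1 (7.94) and DN2 (8.23) and highest in DN3 (9.61) and DN4 (9.67), with CLP at 9.30 (span 1.74, limma adjusted p = 3.12e-08). Cd6 kept that order, from 7.27 in DN1 to 8.83 in DN4. Ppp3ca was low in DN1 (6.02) and DN2 (5.90) against 7.64 to 7.89 in the other fractions and 9.17 in LSK (span 1.99, limma adjusted p = 4.58e-08). Among the paralogues Skap2 read 6.08 in DN1 and 5.89 in DN2 against 4.50 to 4.86, below the background gauge, elsewhere, and Ubash3b read 6.43 in DN1 and 5.91 in DN2 against 5.05 to 5.17.

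Genes with the most similar patterns were found by Pearson r over the 15 lymphoma arrays among 10249 genes. This is a description, since these arrays share fractions and may share lymphomas. Fyn was followed by Lhfp (0.978), Cfap20dc (0.978) and Slamf6 (0.976). Txk was followed by Sema4b (0.934), an immunoglobulin kappa variable segment (0.930) and Emp3 (0.924), and Prkcq by Lrrn3 (0.965), Tubb6 (0.965) and Sgk1 (0.961). For Ubash3a these were Mylip (0.960), Abhd2 (0.944) and Iqgap1 (0.925), and for Themis Zxdb (0.935), Abhd13 (0.909) and Ythdf3 (0.903). The immunoglobulin segment averaged 9.44 in DN1, 5.56 to 5.93 in the other fractions and 7.64 in LSK. Whether cells other than T cells had a part in the DN1 level of Txk was not tested. Between the genes of the set, Prkcq and Fyn had r of -0.91 over the 15 arrays and -0.03 after the fraction means were removed, and Prkcq and Ubash3a 0.84 and 0.51.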

How the data were processed

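RNA of 18 sorted samples was amplified with the WT Pico kit and hybridised to Affymetrix arrays, per the labels. The deposited values are log2 RMA signals which the authors obtained with oligo, per the submitters' processing notes; versions and the genome build are not given in the sources used here. The table holds 41345 probe sets, of which 23521 carry 1 gene symbol, 1814 several and 16010 none. Only the first kind was used, which left 22180 genes.

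Differences were tested with limma 3.58.1 in R 4.3.3 (lmFit, then eBayes; two-sided tests; Benjamini-Hochberg adjustment across the 22180 genes; threshold 0.05), on code tested on simulated data. Groups follow the sample titles. Precision is limited by 3 arrays per group, and the p-values measure only the spread between these samples, which may be technical. Named genes are the 10 members, the paralogues, up to 4 genes of each list with the smallest adjusted p, those called against the direction of most of their list, and the 3 nearest patterns of each gene the F test called. The members and lists were chosen with earlier results of these data known. The background gauge, the motifs, the named markers and the other lower downstream genes were chosen after the data were seen.

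Alternatives were a replicate block, a joint model of all 18 arrays, a dim-gene filter, quantile normalization, averaged probe sets, a trended robust prior, and each array left out in turn. Leaving out a fraction was chosen after the data were seen.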

Additional observations from a re-analysis of the deposited data

Results flagged for a closer look

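The Fyn difference from LSK had opposite signs in DN1 and in other fractions, and the difference between these effects was tested within the lymphoma arrays. In DN1 it differed from LSK by -0.11 and in CLP by 0.81, and DN1 minus CLP was -0.92 (limma adjusted p = 7.54e-05). DN3 differed from LSK by 0.91, and DN3 minus DN1 was 1.02 (adjusted p = 1.86e-05 by limma). DN4 differed from LSK by 0.95, and DN4 minus DN1 was 1.06 (adjusted p = 1.19e-05 by limma). The DN1 value alone did not pass the test against LSK.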

How the results depend on the processing

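The counts of genes called against LSK and among the fractions stayed within 1.5 times of the main count in every alternative run, with 1 exception. The F test called 5 genes, 4 without CLP and 3 without DN1. For all lymphoma fractions, leaving out 1 LSK array or all 5 fraction arrays of 1 replicate number gave 9 to 10 genes higher. The same settings gave 13 to 14 lower paralogues. Leaving out 1 array at a time gave, against LSK, 9 for CLP, 8 to 9 for DN1, 8 for DN2, 9 for DN3 and 9 for DN4. It gave 4 to 5 genes by the F test and 16 to 23 of the pair tests. With the replicate number as a block the counts were 9 against LSK for all fractions, CLP, DN1, DN3 and DN4, 8 for DN2, 5 by the F test and 21 pairs. The labels do not say that a number marks 1 lymphoma across fractions, and 21 of 30 same-number correlations between fractions were over 0.1 (range -0.193 to 0.346), so not every correlation passed 0.1 and the block was kept as an alternative. The mean over fractions does group arrays by number, and all 18 arrays in 1 model, without that grouping, called 10 genes. In 11 of 15 lymphoma arrays, deviations from the fraction mean correlated best, averaged over the other fractions, with arrays of the same number. Of 1420 single-gene alternatives, 1354 kept their side of the threshold, 59 lost the call, 7 gained it and 0 changed direction. Lcp2 in all fractions passed with the dim-gene filter (adjusted p = 0.0446 by limma), the trended prior (0.0462) and all 18 arrays in 1 model (0.0155). Calls also changed for Lcp2 against LSK in CLP (0.0241 with all 18 arrays) and DN1, for the F tests of Ubash3a, Themis and Txk, and for smaller pair differences of Themis, Ubash3a, Fyn and Prkcq. The filter on dim genes kept 12548 genes and all 10 members. The CLP arrays were the least alike, with a median SD over genes of 0.235.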
